A study of Rattus norvegicus with 12 samples.

Results

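The genes described here encode the microfibrils and elastic fibres of the extracellular matrix: Mfap2, Mfap4, Mfap5, Fbn1, Fbn2, Fbln1, Fbln2, Fbln5, Eln and Emilin1. They were taken by symbol, as every probe set whose only gene symbol in the array's annotation is one of these 10 names, which gave 13 of the 31099 probe sets and 10 of the 14218 symbols on the array. Fbn1, Fbln1 and Eln had 2 probe sets and the other 7 genes had 1. The set was chosen on measured values, since its first gene, Mfap2, was picked for its difference between OA and sham cartilage at 8 weeks. The 8-week difference is therefore given, for the 8 genes whose signal allowed a fit, as a description from which no test is read. No threshold was part of the choice. Total RNA from rat knee articular cartilage, biotin labelled, was hybridised to 1-colour Affymetrix arrays. The 12 arrays formed 4 groups of 3, namely OA cartilage 2 weeks after surgery that induces osteoarthritis (OA), sham-operated cartilage at 2 weeks, OA cartilage at 8 weeks and sham-operated cartilage at 8 weeks. All 4 groups had surgery, the labels give no strain, age or sex, and for the surgery they refer to a published rat model. The arrays of a group are numbered 1 to 3 with no statement that they are separate animals. Every p-value below thus reflects the spread between these samples, which may be technical.

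Microfibrils are thin extracellular filaments built from fibrillin molecules joined head to tail. Microfibril-associated glycoproteins bind to them, and in elastic tissues fibulins and emilin help to place and crosslink elastin on the microfibril scaffold. In cartilage, fibrillin microfibrils surround chondrocytes, and microfibrils also hold latent TGF-beta complexes in the matrix. Mfap2 (also called MAGP-1) and Mfap5 (MAGP-2) are the pair of small glycoproteins of this kind, and Mfap2 binds active TGF-beta and BMPs.

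The sequences before RefSeq's listed starts of Mfap2 and Mfap5 are shown because these related glycoproteins are the pair whose values are set side by side below. RefSeq's promoter table for the rat assembly GRCr8 held 6 of the 10 genes. The 250 bases before the listed start are given 5′ to 3′, on the plus strand, at chr5:158597478-158597727 for Mfap2 and chr4:157399669-157399918 for Mfap5. The listed Mfap2 start lies 2607 bases inside the gene's span in RefSeq's gene table, so its window is within the gene and not before its outermost end. Capitals mark the GC box (GGGCGG or its reverse complement CCGCCC) and the CCAAT box (CCAAT or its reverse complement ATTGG).
Mfap2: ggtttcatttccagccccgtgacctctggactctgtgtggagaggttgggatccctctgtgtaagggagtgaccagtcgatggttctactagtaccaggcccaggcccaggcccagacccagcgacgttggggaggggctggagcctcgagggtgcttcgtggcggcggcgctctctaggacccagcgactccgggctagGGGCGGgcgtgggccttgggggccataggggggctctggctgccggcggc
Mfap5: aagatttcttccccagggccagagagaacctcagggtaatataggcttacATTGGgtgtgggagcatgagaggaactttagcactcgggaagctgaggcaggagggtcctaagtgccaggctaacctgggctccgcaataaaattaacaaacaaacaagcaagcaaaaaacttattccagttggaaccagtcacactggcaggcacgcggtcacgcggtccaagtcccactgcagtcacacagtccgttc
The Mfap2 window held 1 GC box, which starts 50 bases before the listed start, and no CCAAT box. The Mfap5 window held 1 CCAAT box on the minus strand, starting 200 bases before the start, and no GC box. Neither window held TATAAA on either strand. A GC box lay in 30.5%, a CCAAT box in 34.0% and TATAAA in 12.9% of the 33469 windows of this length in the table. The base composition was 67.6% G and C for Mfap2 and 51.6% for Mfap5, against a median of 51.2% over all windows. These letter matches describe the windows only.

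The values are log2 array values as deposited, and the number of arrays limits their precision. A log2 value above 4 was found for 48.3% to 49.9% of probe sets per array, and each array correlated with the others of its group at a mean r of 0.986 to 0.996. A probe set was tested if its value exceeded 4 in at least 3 arrays, which kept 15934 probe sets, 10 of them from 8 of the genes described here. Chondrocyte markers (8 of 10 listed, all 8 above that limit) averaged 14.43 to 14.70 in OA and 14.70 to 14.90 in sham cartilage at 8 weeks, and 14.68 to 15.00 in OA and 14.73 to 15.05 in sham cartilage at 2 weeks. Skeletal muscle markers (15 of 18 over the limit, Myh2, Myh7 and Ryr1 not) differed widely between arrays. Their mean was 14.58, 11.54 and 10.15 in the OA arrays at 8 weeks, against 10.83, 5.89 and 7.92 in the sham arrays at 8 weeks, and it lay between 5.29 and 8.43 in all arrays at 2 weeks. Levels of different probe sets have no common scale and are not set against each other.

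Mfap2 was much lower in OA than in sham cartilage at 8 weeks and overlapped at 2 weeks. In replicates 1 to 3, its probe set (1371815_at, gene on chromosome 5) gave 6.05, 6.30 and 6.86 in OA cartilage at 8 weeks, against 8.70, 9.13 and 8.98 in sham cartilage. The highest OA array lay 1.84 below the lowest sham array. At 2 weeks the values were 9.37, 9.32 and 9.79 in OA cartilage, against 9.80, 9.32 and 9.91 in sham cartilage, and the groups overlapped. The group means at 8 weeks were 6.40 ± 0.41 in OA and 8.94 ± 0.22 in sham cartilage, and at 2 weeks 9.49 ± 0.26 in OA and 9.68 ± 0.32 in sham cartilage (SD, n = 3 each). From high to low the order was therefore sham at 2 weeks, OA at 2 weeks, sham at 8 weeks and OA at 8 weeks, with an overlap only between the first pair. Because the tissue is a bulk sample, fewer cells that carry a transcript and less RNA per cell cannot be told apart.

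**Figure D1:**
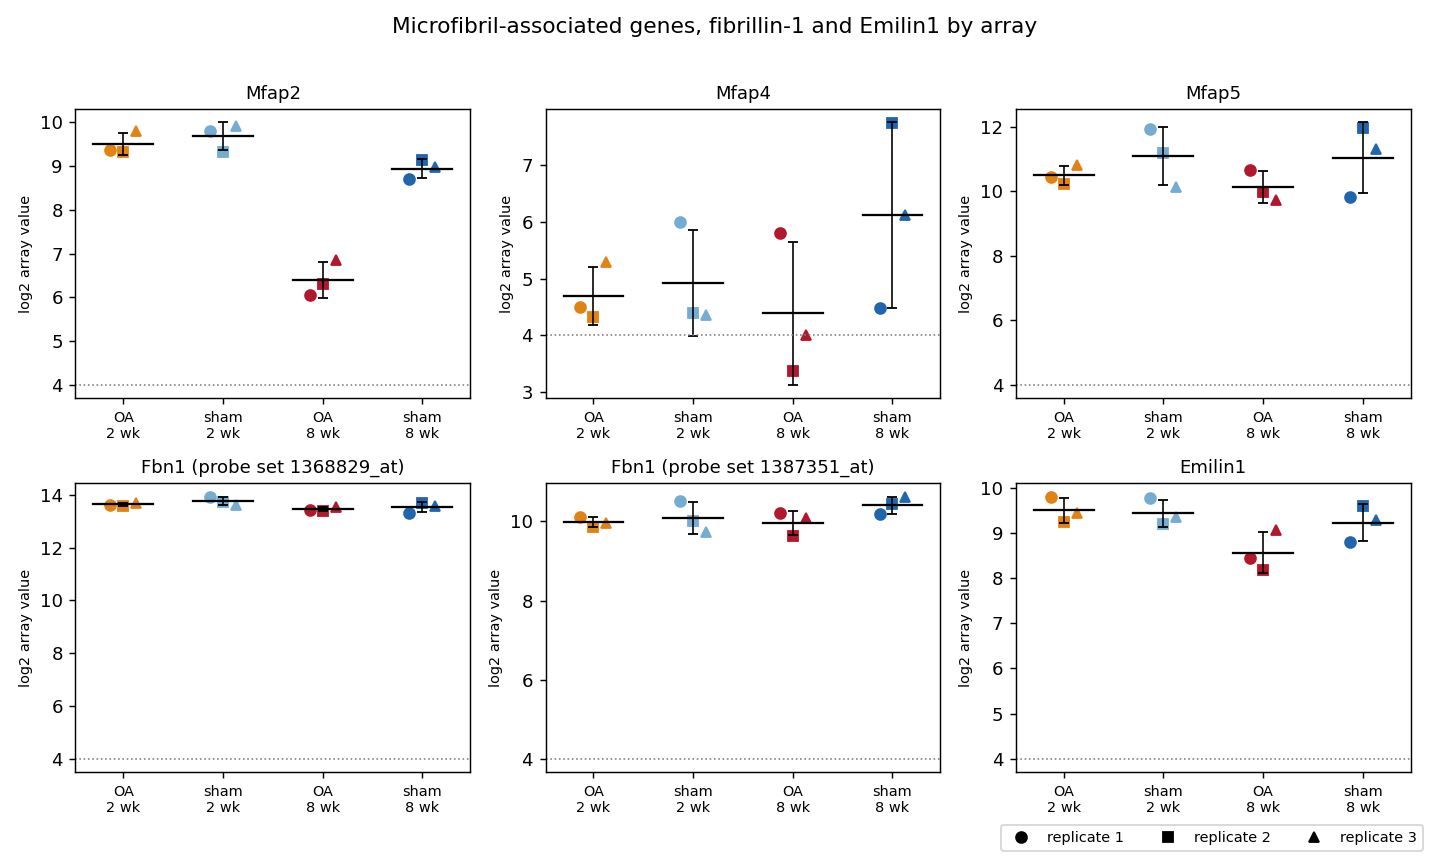
Log2 array values of the microfibril glycoproteins, Fbn1 and Emilin1 in each of the 12 arrays (y axis), by group (x axis: OA and sham at 2 weeks, OA and sham at 8 weeks). Points are arrays, their shape is the replicate number, lines are means and bars SD (n = 3), and the dotted line is the limit of log2 4. The 3 Mfap2 values of OA cartilage at 8 weeks, 6.05 to 6.86, sit below all 9 other arrays.

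The 8-week difference of Mfap2 was −2.53 ± 0.23 (log2, OA minus sham, with its standard error) and amounts to 5.78-fold lower in OA. Leaving out each array in turn gave −2.76 to −2.36, where leaving out an array at 2 weeks cannot change this difference of means. The value was −2.36 without OA replicate 1, the array with the highest muscle level. With the muscle marker level as a covariate the difference was −2.03. Here and below this covariate is the level of an array less the mean over all arrays of its time. No further part of muscle in the difference was tested.

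Markers of several other cell types, but not of all, were lower in OA than in sham cartilage at 8 weeks, as was Mfap2. Skeletal muscle markers were above 0 for 14 of 15 (median 4.45), and smooth muscle and pericyte markers for 5 of 7 (median 0.22), with 0 called on either list. Fibroblast, synovium and tendon markers were mixed, with 4 above and 7 below 0 and 1 called lower. Osteoclast markers (5 of 6 on the array over the limit, Calcr not) averaged 9.48 to 10.82 in OA arrays, against 12.53 to 12.87 in sham arrays, and all 5 were called lower, where 3.48% of all 9247 genes were called (2.45% lower). Macrophage markers (12 of 14, Cd163 and Fcgr3a not) averaged 6.96 to 7.01 in OA arrays, against 7.94 to 10.68 in sham arrays, with 12 of 12 below 0 and 4 called. Osteoblast and osteocyte markers (9 of 10, Sost not) averaged 10.53 to 11.18 in OA arrays, against 11.79 to 12.14 in sham arrays, with 3 called lower. Endothelial markers (5 of 9, Cldn5, Esam, Tie1 and Vwf not) averaged 4.61 to 5.59 in OA arrays, against 5.64 to 7.38 in sham arrays, with 0 called. The chondrocyte marker means hardly separated the groups at 8 weeks, since OA replicate 3 was at 14.6951 and sham replicate 3 at 14.6958. Of these 8 markers 5 were below 0 and 3 above, with a median of −0.14. Only 1 was called, Col9a1, a chain of collagen IX, lower at −0.48 ± 0.10. The part of these cell types in the Mfap2 difference was not tested.

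**Figure D2:**
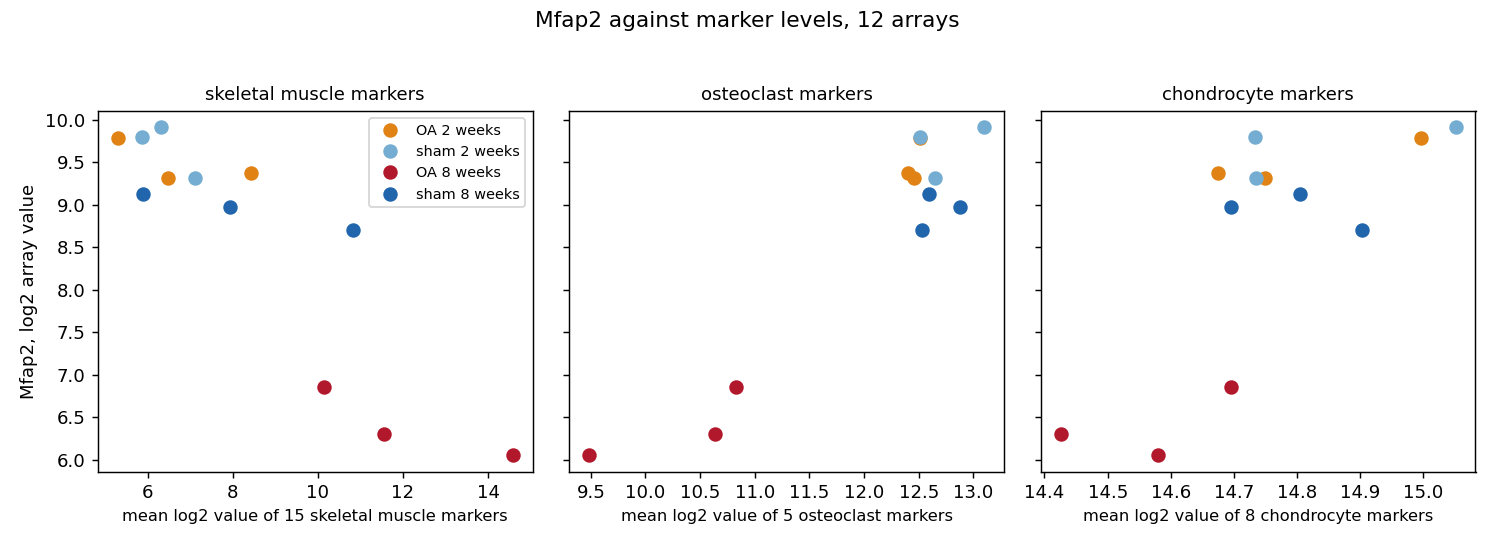
Mfap2 (y axis, log2) against the mean log2 value of 15 skeletal muscle, 5 osteoclast and 8 chondrocyte markers (x axes) in each of the 12 arrays, coloured by group. The 3 OA arrays at 8 weeks combine the lowest Mfap2 values with osteoclast marker means of 9.48 to 10.82, and their chondrocyte marker means, 14.43 to 14.70, lie at or below the 3 sham means of 14.70 to 14.90 at 8 weeks.

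Mfap5, the second of the glycoprotein pair, did not separate the groups. Its probe set (1373674_at, chromosome 4) gave 10.68, 9.99 and 9.74 in OA cartilage at 8 weeks, against 9.83, 11.98 and 11.31 in sham cartilage. The groups overlapped because sham replicate 1 lay among the OA values. At 2 weeks the values were 10.45, 10.23 and 10.82 in OA cartilage, against 11.94, 11.20 and 10.15 in sham cartilage, again with overlap. Mfap4, a fibrinogen-domain protein of microfibrils and vessel walls, was scattered between 3.37 and 7.75, and was over the limit of log2 4 in 11 arrays. Its probe set (1371700_at, chromosome 10) gave 5.80, 3.37 and 4.01 in OA cartilage at 8 weeks, against 4.49, 7.75 and 6.12 in sham cartilage. At 2 weeks it gave 4.49, 4.32 and 5.29 in OA cartilage, against 5.997, 4.40 and 4.36 in sham cartilage. The groups overlapped at both times, and sham replicate 1 at 8 weeks was again the lowest of its group. In the 8-week arrays the mean of the fibroblast, synovium and tendon markers (11 kept of 11 on the array) was 12.27, 12.91 and 12.85 in OA, against 12.62, 13.43 and 13.13 in sham cartilage. That of the smooth muscle and pericyte markers (7 of 10 kept, Cnn1, Des and Notch3 not) was 6.25, 5.43 and 5.41 in OA, against 5.12, 6.39 and 5.93 in sham cartilage, and sham replicate 1 was the lowest sham array on both lists. Their part in the Mfap4 and Mfap5 values was not tested.

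Fbn1, the main fibrillin of adult tissue, stayed within a narrow range on its brighter probe set, while the dimmer one ranged from 9.63 to 10.61. Its brighter probe set (1368829_at, chromosome 3) lay between 13.31 and 13.94 in all 12 arrays, with means at 8 weeks of 13.46 ± 0.07 in OA and 13.53 ± 0.20 in sham cartilage. The means at 2 weeks were 13.63 ± 0.05 in OA and 13.76 ± 0.16 in sham cartilage (SD, n = 3 each). The dimmer probe set (1387351_at) had means at 8 weeks of 9.97 ± 0.30 in OA and 10.41 ± 0.22 in sham cartilage, and at 2 weeks of 9.98 ± 0.13 in OA and 10.09 ± 0.40 in sham cartilage. OA and sham arrays overlapped on both probe sets at both times. Fbn2, the fibrillin best known from development, was over the limit in 1 array only (1370037_at, chromosome 18). That was sham replicate 1 at 2 weeks, at 5.16, and the other 11 arrays lay between 2.13 and 2.92, so it was not tested.

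Emilin1, a microfibril-interface glycoprotein that restrains TGF-beta processing, had an 8-week pattern in the direction of Mfap2 but with overlap (1372325_at, chromosome 6). Its values were 8.43, 8.18 and 9.07 in OA cartilage at 8 weeks, against 8.79, 9.60 and 9.28 in sham cartilage. OA replicate 3 lay above sham replicate 1. At 2 weeks they were 9.80, 9.25 and 9.43 in OA cartilage, against 9.77, 9.19 and 9.34 in sham cartilage, and the arrays with the same number differed by little.

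Among the fibulins, Fbln5, which binds elastin and lysyl oxidase-like enzymes on the microfibril, gave 5.66, 5.28 and 4.80 in OA cartilage at 8 weeks, against 6.19, 5.59 and 5.89 in sham cartilage (1367866_at, chromosome 6). Only OA replicate 1 reached into the sham range. At 2 weeks Fbln5 was 6.14, 5.82 and 6.35 in OA cartilage, against 5.69, 5.92 and 6.32 in sham cartilage, with overlap. Fbln2, a fibulin of basement membranes and developing cartilage and vessels, was near the floor of the scale at 2 weeks in both groups, between 2.21 and 2.46 (1389533_at, chromosome 4). At 8 weeks it was 4.60, 4.71 and 4.86 in OA cartilage, against 3.21, 4.56 and 4.03 in sham cartilage, so the groups were separate by 0.035 only. Its probe set was over the limit in 5 arrays, all at 8 weeks, so it passed through the later arrays alone and the filter favoured a difference between times. Neither probe set of Fbln1, a fibulin of many connective tissues (chromosome 7), was tested. One (1372518_at) was over the limit only in OA replicate 1 at 8 weeks, at 5.22, and lay between 2.54 and 3.30 elsewhere, and the other (1385452_at) lay between 2.87 and 3.07 throughout.

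Eln, which encodes the elastin precursor, had values that lay close together in OA and sham cartilage. Its brighter probe set (1388111_at, chromosome 12) gave 8.37, 8.38 and 8.37 in OA cartilage at 8 weeks, against 8.48, 9.15 and 8.47 in sham cartilage. The OA values lay below the sham values by a gap of 0.094. At 2 weeks it gave 8.01, 8.51 and 7.93 in OA cartilage, against 7.97, 8.26 and 7.90 in sham cartilage, and the groups overlapped. The dimmer probe set (1395753_at) lay between 4.74 and 5.19 in all arrays and its OA and sham groups overlapped at both times.

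**Figure D3:**
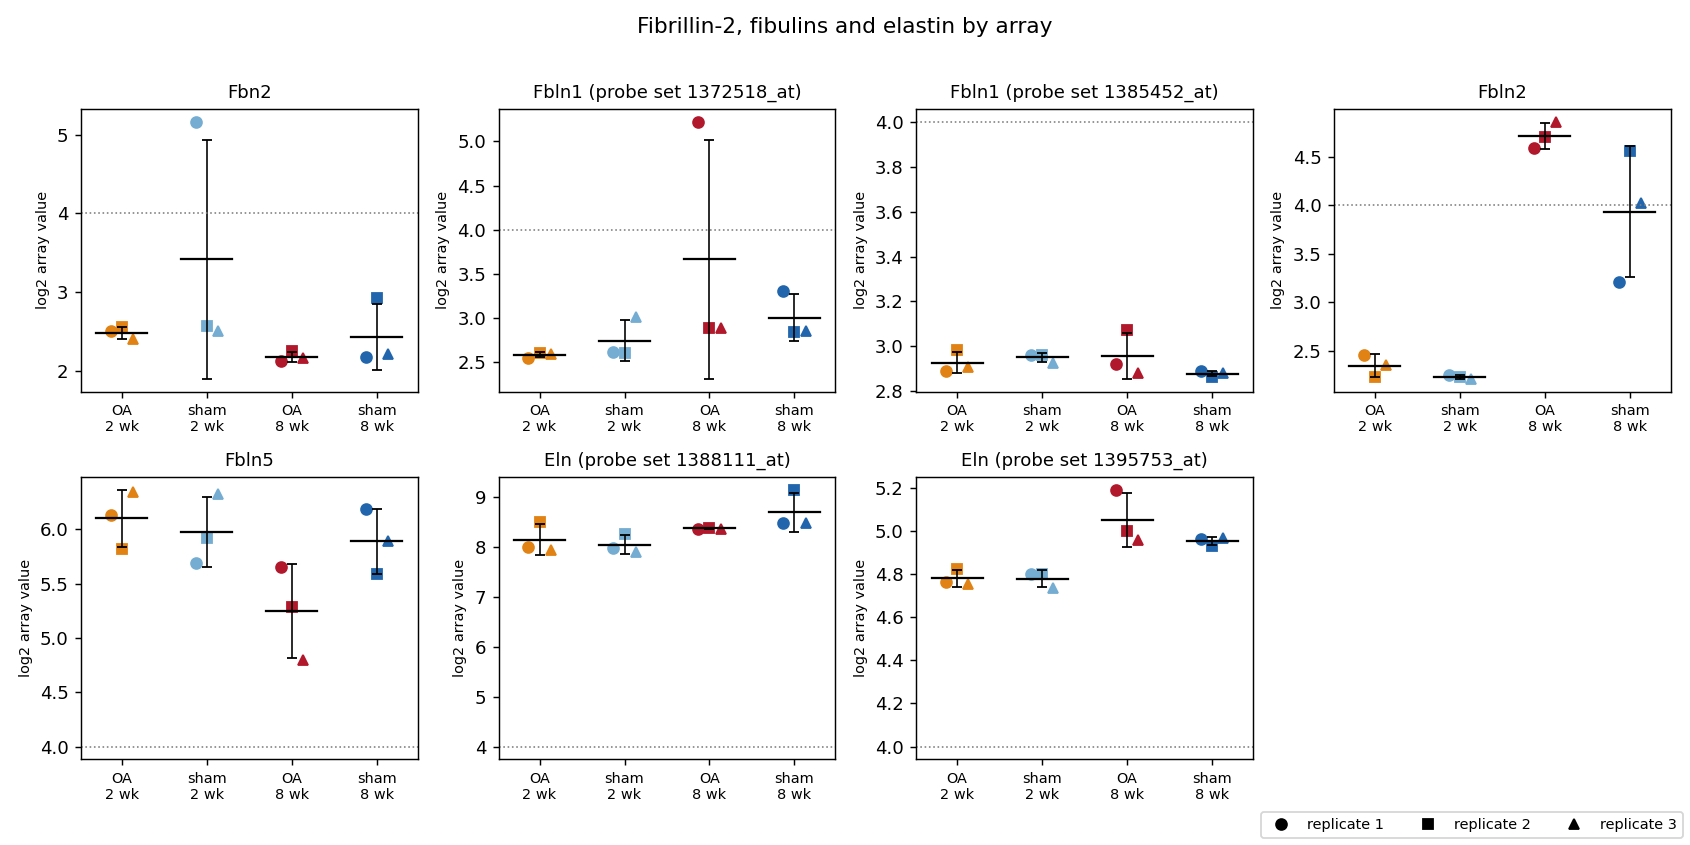
Log2 array values of Fbn2, the fibulins and Eln in each of the 12 arrays (y axis), by group (x axis: OA and sham at 2 weeks, OA and sham at 8 weeks). Points are arrays, their shape is the replicate number, lines are means, bars SD (n = 3) and the dotted line is the limit of log2 4. Fbln2 lies at 2.21 to 2.46 in all 6 arrays at 2 weeks and at 3.21 to 4.86 at 8 weeks.

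The question of the 2-week comparison is what had changed soon after OA surgery, and its arrays do not enter the 8-week difference of means. They do enter the shared spread from which the 8-week standard errors and calls come. None of the 10 tested probe sets was called different between OA and sham cartilage at 2 weeks (limma, Benjamini-Hochberg adjusted p under 0.05 over 15934 probe sets), against a background of 0% called. At an unadjusted p under 0.05 there were 0 of the 10, and 269 of all probe sets (1.69%). OA and sham arrays overlapped for all 10, while 5.38% of all probe sets had groups that did not overlap. The Mfap2 difference at 2 weeks was −0.18 ± 0.23 with a 95% interval of −0.70 to 0.34. For Emilin1 it was 0.06 ± 0.28 (−0.56 to 0.68), for Fbln5 0.12 ± 0.25 (−0.44 to 0.69) and for Eln 0.10 ± 0.21 (−0.36 to 0.56). The brighter Fbn1 probe set gave −0.13 ± 0.12 (−0.39 to 0.14). Mfap5, at −0.59 ± 0.56 (−1.85 to 0.66), and Mfap4, at −0.22 ± 0.85 (−2.12 to 1.68), had wide intervals, which leave sizable differences of either sign possible for them. The fit used a shared spread per probe set over all 12 arrays, so these widths also reflect the 8-week arrays.

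The 8-week comparison asks the same at the later time, and for these genes it is a description because it led to their choice. Mfap2 had the largest difference among the 10 tested probe sets, followed by Mfap4 at −1.73 ± 0.85 and Mfap5 at −0.90 ± 0.56 (log2, OA minus sham). Emilin1 was at −0.66 ± 0.28, Fbln5 at −0.64 ± 0.25 and Fbn1 at −0.07 ± 0.12 on the brighter and −0.44 ± 0.21 on the dimmer probe set. Eln was at −0.33 ± 0.21 on the brighter and 0.10 ± 0.08 on the dimmer probe set, and Fbln2 was above 0, at 0.79 ± 0.26. In all, 8 of 10 probe sets were below 0, and the median over the 8 genes was −0.65, against −0.03 over all 9247 tested genes. Of the 10, 1 was called, namely Mfap2, beside 3.46% of all probe sets (1.95% called lower), and the groups did not overlap for 3 of the 10, beside 25.1% of all probe sets. Nothing is read from these counts, since the choice of Mfap2 used this contrast. Over the array 552 probe sets were called, or 1037 in a fit that pairs same-numbered arrays of a time as a block.

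The 8-week sizes of the genes other than Mfap2 depended on single arrays and on the muscle level. Without sham replicate 2, Mfap4 was at −0.92, Mfap5 at −0.43 and the brighter Eln probe set at −0.10. Without sham replicate 1, Mfap5 was at −1.50 and Fbln2 at 0.43. Without OA replicate 3, Fbln5 was at −0.42, without OA replicate 2 the dimmer Fbn1 probe set was at −0.27, and without OA replicate 1 the dimmer Eln probe set was at 0.024. The brighter Fbn1 probe set moved between −0.18 and 0.013, so its sign is not settled. With the muscle level as a covariate, Emilin1 was at −0.29, Mfap5 at −0.35, Mfap4 at −1.02, Fbln5 at −1.08, Fbln2 at 1.30, the brighter Eln probe set at −0.14 and the brighter Fbn1 probe set at 0.11.

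**Figure D4:**
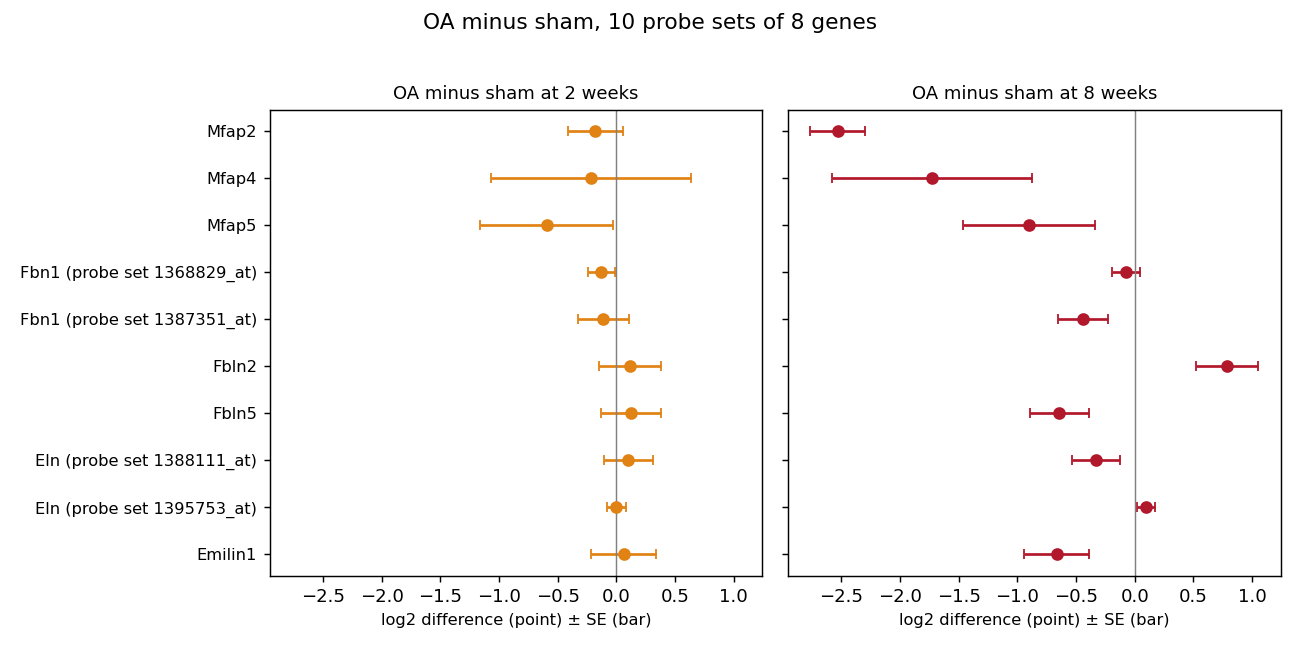
Log2 difference between OA and sham cartilage (x axis, OA minus sham; points, with bars for the standard error, 3 arrays a group) for the 10 tested probe sets of 8 genes (rows), at 2 weeks and at 8 weeks. At 2 weeks all points lie between −0.59 and 0.12, and at 8 weeks Mfap2 stands at −2.53.

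The OA difference at 8 weeks less that at 2 weeks was −2.35 ± 0.33 for Mfap2, again a description. The other 9 probe sets lay between −1.51 for Mfap4 and 0.67 for Fbln2. Of the 10, 1 was called, namely Mfap2, beside 0.138% of all probe sets (22, or 67 with the replicate block within each time), and nothing is read from this count because the contrast holds the 8-week difference. The call was lost without a filter, with the muscle covariate and in 9 of 12 fits that left out 1 array.

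Between 2 and 8 weeks after OA surgery, Fbln5 and Emilin1 fell and the dimmer Eln probe set rose. Time after surgery cannot be told apart from age or from any batch of arrays, and the 8-week arrays are those of the contrast that led to the choice of genes. The Mfap2 difference was −3.09 ± 0.23 (log2, 8 minus 2 weeks), the highest of the 3 arrays at 8 weeks lying 2.46 below the lowest at 2 weeks, and is given without a test. Fbln5 fell by 0.86 ± 0.25 (log2, limma, Benjamini-Hochberg adjusted p = 0.0249) and Emilin1 fell by 0.93 ± 0.28 (adjusted p = 0.0256, limma). In both genes the 3 arrays at 8 weeks lay below the 3 at 2 weeks. Fbln2 was higher at 8 weeks by 2.38 ± 0.26, but its 2-week values near the floor make this size inexact. Eln was higher by 0.27 ± 0.08 on the dimmer probe set (adjusted p = 0.0249, limma) and by 0.22 ± 0.21 on the brighter one (adjusted p = 0.442, limma). Fbn1 gave −0.17 ± 0.12 on its brighter probe set (adjusted p = 0.286, limma), Mfap5 −0.36 ± 0.56 (adjusted p = 0.664, limma) and Mfap4 −0.31 ± 0.85 (adjusted p = 0.816, limma). In all, 5 of 10 probe sets were called, 3 lower with Mfap2 among them and 2 higher with Fbln2 among them, with a background of 34.1% called (12.4% lower, 21.7% higher). The arrays of the 2 times did not overlap for 6 of the 10, against 46.6% of all probe sets. Markers of other cell types also moved between the times within OA. Skeletal muscle markers were called higher for 8 of 15 (median 6.19), and osteoclast markers were called lower for 5 of 5, macrophage markers for 7 of 12 and osteoblast and osteocyte markers for 6 of 9, where 29.3% of all genes were called. Their part in these differences was not tested beyond the muscle covariate, which was centred within each time and so left out the change in mean level between times.

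The calls of Fbln5, Emilin1 and Eln within OA rested on small margins. Fbln5 passed no longer without OA replicate 1 or 3 at 2 weeks (limma adjusted p = 0.0638 and 0.0822) or without OA replicate 2 or 3 at 8 weeks (0.0545 and 0.0843), and Emilin1 no longer without OA replicate 1 or 3 at 2 weeks (0.0887 and 0.0531) or OA replicate 1 or 2 at 8 weeks (0.0725 and 0.0906). The dimmer Eln probe set passed no longer without OA replicate 1 or 3 at 2 weeks (limma adjusted p = 0.0630 and 0.0684) or OA replicate 1 at 8 weeks (0.0727), and with added quantile normalization its sign turned, at −0.032. With the muscle level, centred within each time, as a covariate neither Emilin1 (limma adjusted p = 0.0696) nor the dimmer Eln probe set (0.0708) passed. That covariate does not adjust for the change in mean muscle level between times, which was 6.73 at 2 weeks and 12.09 at 8 weeks in OA cartilage. In a fit of the 6 OA arrays alone neither Fbln5 (limma adjusted p = 0.0515) nor the dimmer Eln probe set (0.104) passed.

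Between 2 and 8 weeks after sham surgery, the only one of the 10 probe sets called was Fbln2, beside 18.7% of all probe sets. It passed the limit through the 8-week arrays alone, which favours a difference between times, so its difference of 1.71 ± 0.26 is a description. Of the other 9, 0 were called. The Mfap2 difference was −0.74 ± 0.23, with its arrays separate by 0.19, and is given without a test. Eln was higher by 0.65 ± 0.21 on the brighter probe set (limma adjusted p = 0.0526) and 0.18 ± 0.08 on the dimmer one (adjusted p = 0.191, limma), with no overlap between times on either. Emilin1 at −0.21 ± 0.28 and Fbln5 at −0.09 ± 0.25 did not pass, nor did Mfap4 at 1.20 ± 0.85 and Mfap5 at −0.06 ± 0.56. The Fbn1 probe sets differed in sign, with −0.23 ± 0.12 on the brighter and 0.32 ± 0.21 on the dimmer one, and neither passed. The arrays of the 2 times did not overlap for 4 of the 10, against 35.2% of all probe sets. Whether the Fbln5 or Emilin1 change over time differed between OA and sham cartilage is the same quantity as their differences of the OA effect, −0.77 ± 0.36 for Fbln5 and −0.73 ± 0.39 for Emilin1, neither of which was called.

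**Figure D5:**
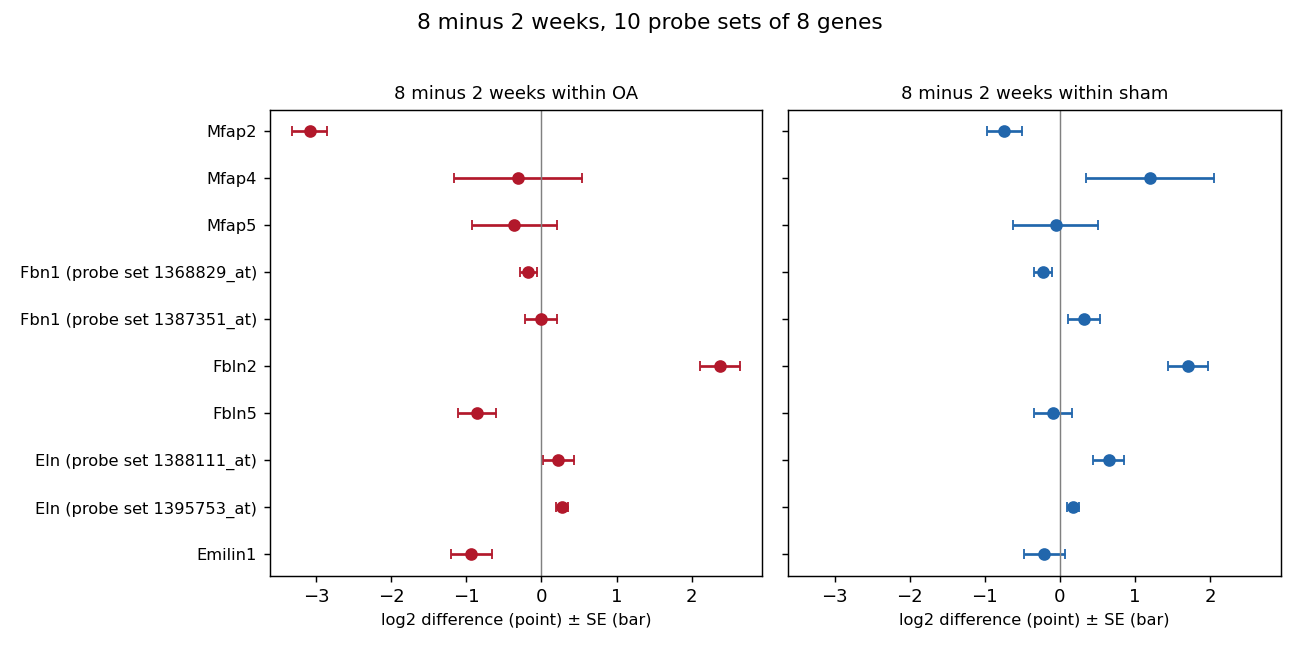
Log2 difference between 8 and 2 weeks (x axis, 8 minus 2 weeks; points, with bars for the standard error, 3 arrays a group) for the 10 tested probe sets of 8 genes (rows), within OA and within sham cartilage. Mfap2 stands at −3.09 in OA and −0.74 in sham cartilage, and Fbln2 at 2.38 in OA and 1.71 in sham cartilage.

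The genes whose log2 values were most like those of Mfap2 over the 12 arrays, among 9247 genes, were Ctsz, a lysosomal cathepsin (Pearson r 0.982, Spearman rho 0.797), Col9a3, a chain of the cartilage collagen IX (0.975, rho 0.874), C1qtnf6, a secreted C1q/TNF-related protein (0.975, rho 0.818), Fap, a serine protease of activated fibroblasts (0.974, rho 0.748), and Clec11a, a secreted bone growth factor (0.973, rho 0.783). These correlations share the 3 low OA arrays at 8 weeks. With each time point centred on its own mean the closest were Clec11a (r 0.980), C1qtnf6 (0.977), the osteoclast protease Ctsk (0.976), Ctsz (0.975) and Tmem119, a membrane protein of osteoblasts and microglia (0.975). In the same time-centred values the other microfibril genes were less alike, from Emilin1 (r 0.722), Mfap4 (0.570), Fbln5 (0.528) and Mfap5 (0.450) to Eln (0.398), Fbn1 (0.336) and Fbln2 (−0.582). No test is given for these, since the arrays also chose Mfap2.

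Within 1 time point, 28 pairs of the 8 genes were compared over 6 arrays at each of the 2 times, 56 relations in all. At 2 weeks Mfap5 and Fbn1 had r = 0.979 (exact permutation p = 0.00278, Benjamini-Hochberg adjusted 0.156) and rho = 0.943 (exact permutation p = 0.0167), and r = 0.938 without the 2 farthest arrays. At 8 weeks Mfap4 and Mfap5 had r = 0.946 (exact permutation p = 0.00833, adjusted 0.233) and rho = 0.829 (exact permutation p = 0.0583), and r = 0.965 without the 2 farthest arrays. None of the 56 passed after adjustment. With 6 arrays the exact permutation p cannot be small enough for a pair on its own to pass over 56 relations, so no absence of a relation is read from this. The 6 arrays of a time hold both surgery groups.

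Other genes of elastic fibre assembly were measured as a list of 25, of which 19 were on the array and 15 over the limit (Adamts6, Adamtsl5, Mmrn1 and Mmrn2 not). At 2 weeks 0 of the 15 were called between OA and sham cartilage, with a median of −0.21, against −0.01 over all genes and 0% called. The smallest unadjusted p belonged to Efemp1, a fibulin-like glycoprotein, at −1.01 ± 0.50, and Ltbp4, a latent TGF-beta binding protein of elastic fibres, at −0.37 ± 0.20. At 8 weeks 1 was called lower and 0 higher, with a per-gene background of 3.48% (2.45% lower), and the median was −0.24, against −0.03 over all genes. The called gene was Loxl3, a lysyl oxidase-like crosslinking enzyme, at −0.85 ± 0.18. Loxl2, which had the next smallest unadjusted p, stood at −0.85 ± 0.21 and was not called. Loxl1, the enzyme that Fbln5 brings to elastin, had a larger unadjusted p than Loxl2, stood at −1.81 ± 0.50 and was not called. Between 2 and 8 weeks within OA, 3 were called higher and 1 lower, with a per-gene background of 29.3% (16.5% higher, 12.8% lower). Adamtsl4, a fibrillin-binding ADAMTS-like protein, rose by 0.78 ± 0.18 (limma adjusted p = 0.00841) and Ltbp2, a microfibril-bound protein, by 1.22 ± 0.38 (adjusted p = 0.0334, limma), while Loxl1 fell by 1.92 ± 0.50 (adjusted p = 0.0135, limma). The third gene called higher was Efemp1, which was over the limit in 2 arrays at 2 weeks and 6 at 8 weeks. It was thus kept through the later arrays, and the filter favoured a difference between times. Its values in OA cartilage were 6.22, 7.74 and 6.39 at 8 weeks, against 2.82, 3.56 and 3.38 at 2 weeks, and in sham cartilage 5.86, 6.38 and 6.86 at 8 weeks, against 5.16, 4.21 and 3.42 at 2 weeks. They are given as a description, with no overlap between times in either group. Efemp1 was also the 1 gene of the 15 called within sham cartilage, where the per-gene background was 14.8% (9.46% higher).

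Proteases that cleave elastin were a list of 9, of which 7 were on the array and 6 over the limit (Mmp7 not). At 2 weeks 0 of the 6 were called, with a median of −0.11. Mmp9, a gelatinase, stood at −0.58 ± 0.45 and Ctsk, a lysosomal protease of osteoclasts, at −0.20 ± 0.16. At 8 weeks 2 of the 6 were called lower in OA, Mmp9 at −3.62 ± 0.45 and Ctsk at −1.31 ± 0.16, with 2.45% of all genes called lower, and the median was −1.02. Between 2 and 8 weeks within OA the same 2 genes were called lower: Ctsk fell by 1.03 ± 0.16 (limma adjusted p = 0.000738) and Mmp9 fell by 2.80 ± 0.45 (adjusted p = 0.000828, limma), where 12.8% of all genes were called lower. Within sham cartilage 0 of the 6 were called, beside 14.8% of all genes. Mmp9 and Ctsk are also in the osteoclast marker list, whose mean was 9.48 to 10.82 in OA arrays and 12.53 to 12.87 in sham arrays at 8 weeks, and the part of osteoclasts in their differences was not tested.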

How the data were processed

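The deposited values are log2 intensities that the authors had made with GCRMA, per the submitters' processing notes (background correction, normalization and summary per probe set), in which differences near the floor are compressed. RNA was extracted with TRIzol and RNeasy columns, per the labels' protocols. The scale was taken as log2 from the range of the values, and the GCRMA version is not given in the sources used here. Nothing was normalized again. Control probe sets (57) were left out, and 15934 probe sets with a log2 value above 4 in at least 3 arrays were kept. Symbols came from the array's annotation (20832 probe sets with 1 symbol, 436 with several, 9831 with none), of which 20764 had an Entrez ID in the current rat gene table and 0 changed. Chromosomes, gene names and upstream sequences are from RefSeq's tables for GRCr8. For lists, the kept probe set with the highest mean stood for a gene.

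A linear model with a mean for each group was fitted over the kept probe sets with limma 3.58.1 in R 4.3.3 (8 residual and 1.94 prior degrees of freedom), and p-values were adjusted over all of them by the Benjamini-Hochberg method. The fitting code was run on simulated arrays with independent noise and changes placed only in the OA arrays at 2 weeks. That run checks the code and not the p-values of these data, where same-numbered arrays tended to deviate together. No pair of arrays was a duplicate, since the largest probe set difference was at least 5.24 for every pair. Figures used matplotlib 3.10.9 with Python 3.11.15, pandas 2.3.3 and numpy 2.4.6.

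Replicate numbers come from the labels. Deviations from the group means were correlated between same-numbered OA and sham arrays. The r was 0.333, 0.360 and 0.527 at 2 weeks and 0.239, 0.237 and 0.119 at 8 weeks, so same-numbered arrays tended to deviate together within a time. The labels state no pairing, and differently numbered arrays were not compared. Across times the r was 0.0352, 0.237 and 0.0489 in OA and −0.497, 0.0739 and −0.424 in sham cartilage. A block within each time was therefore added after the data were seen.

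All 10 genes are named, as are up to 4 called members of each further list (with fewer than 2 called, those with the smallest unadjusted p) and the 5 genes most like Mfap2 by each measure. The genes, lists and rules were chosen with earlier results of these data known.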

Additional observations from a re-analysis of the deposited data

Results flagged for a closer look

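Mfap2 stood out because its OA effect differed between the times. OA minus sham at 8 weeks less OA minus sham at 2 weeks was −2.35 ± 0.33 on the log2 scale, and the interaction term of the limma model passed its threshold. The 8-week contrast led to the choice of the gene, so this is no independent test. The 3 OA arrays at 8 weeks lay below the 3 sham arrays, whereas at 2 weeks the arrays overlapped. The value stayed between −2.58 and −2.17 when each array was left out in turn, and it was −1.89 with the muscle marker level as a covariate. The call itself did not hold in most fits, since it was lost in 9 of the 12 that left out 1 array, without a filter and with the muscle covariate.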

How the results depend on the processing

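The alternatives changed 1 choice at a time and gave 913 values for the member probe sets, of which 858 counted as unchanged. A tested value counted so if it stayed on the same side of the threshold and in the same direction. The untested values (the 8-week difference, the difference of the OA effect and Mfap2 between times) counted so if they moved by less than the replicate spread. Mfap2 within sham thus counted as unchanged, although it passed the threshold with quantile normalization, the replicate block and the muscle covariate and not in the main fit. The muscle covariate was centred within each time, so it did not follow the change in muscle level between times. In sham cartilage the mean level was 6.43 at 2 weeks and 8.21 at 8 weeks. The centred levels of the sham arrays were −0.71, 0.52 and −0.27 at 2 weeks, and 0.68, −4.27 and −2.23 at 8 weeks. Many of the 913 values were fixed in advance. Filters, replicate blocks, fits of only the compared arrays and leaving out an array of another group keep the difference of means. There, only the adjusted p of a tested value could change. The sign turned for 30 of the 913, of which 5 were within OA, 8 within sham, 9 at 2 weeks, 3 at 8 weeks and 5 for the difference of the OA effect. The 19 alternative values of Mfap2 at 8 weeks were all below 0, and the one that moved most was −2.03 with the muscle marker level as a covariate. Of these, only quantile normalization, the muscle covariate and leaving out an 8-week array could move the value, and the rest stay at −2.53 by construction. Sign turns in the fits that left out 1 array are given further below. Of the other sign turns, those within OA were the dimmer Eln probe set with quantile normalization (−0.032) and Mfap4 with the muscle covariate (0.019). Within sham they were the dimmer Eln probe set with quantile normalization (−0.10), Fbln5 with the muscle covariate (0.11) and the dimmer in place of the brighter Fbn1 probe set (0.32). At 2 weeks it was the dimmer Eln probe set with the muscle covariate (−0.0054). At 8 weeks they were the dimmer in place of the brighter Eln probe set (0.095) and the brighter Fbn1 probe set with the muscle covariate (0.11), and for the difference of the OA effect Mfap5 with the muscle covariate (0.20).

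The filter at log2 4 leaves 10 member probe sets, a filter at log2 6 leaves 7 and no filter leaves 13. Within OA 5 were called, and 3 with a filter at log2 6 (of 7), with only the compared arrays or with the muscle covariate. Within sham 1 was called, and 3 without a filter (of 13), 0 with a filter at log2 6 (of 7), 2 with quantile normalization and 2 with the muscle covariate. For the difference of the OA effect 1 was called, and 0 without a filter or with the muscle covariate. Over all probe sets, the calls within OA were 5430, and 9461 without a filter. Within sham they were 2979, with 6938 without a filter and 1523 at log2 6. At 8 weeks they were 552, with 362 without a filter, 27 with only the compared arrays and 36 with the muscle covariate. For the difference of the OA effect they were 22, with 8 without a filter, 39 with quantile normalization and 12 with the muscle covariate. The cause was not tested, beyond the number of probe sets or arrays that an alternative leaves.

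With the replicate number as a block over both times, member calls within sham were 3, where Eln rose by 0.65 (limma adjusted p = 0.0101) and Mfap2 was added to Fbln2, and the other member counts stayed as they were. The replicate block within each time, added after the data were seen, gave 1037 calls over all probe sets at 8 weeks and 67 for the difference of the OA effect, and changed no member call.

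Leaving out each array in turn gave 2 to 5 member calls within OA, 1 to 2 within sham and 0 to 1 for the difference of the OA effect, with 0 in 9 of 12 fits. Over all probe sets it gave 0 to 1 calls at 2 weeks, 110 to 979 at 8 weeks and 7 to 80 for the difference of the OA effect. Signs turned within OA for the dimmer Fbn1 probe set (−0.13 to 0.16) and Mfap4 (−1.02 to 0.20). Within sham they turned for Emilin1 (−0.40 to 0.0083), Fbln5 (−0.24 to 0.084) and Mfap5 (−0.53 to 0.55). At 2 weeks they turned for Eln (−0.077 to 0.21 on the brighter and −0.021 to 0.015 on the dimmer probe set), Emilin1 (−0.092 to 0.23), Fbln5 (−0.019 to 0.30), the dimmer Fbn1 probe set (−0.29 to 0.11) and Mfap4 (−0.51 to 0.32). None of these values had passed the test. At 8 weeks the brighter Fbn1 probe set ranged over −0.18 to 0.013, and for the difference of the OA effect it ranged over −0.055 to 0.14 and Mfap5 over −0.91 to 0.17. Signal limits Fbn2, Fbln1 and Fbln2, whose values lay near the floor in most arrays. Mfap4 also lay near the limit of log2 4 in several arrays. The alternative with only the compared arrays has no meaning for the difference of the OA effect, which uses all 4 groups, and was not run there.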
